A study of Drosophila melanogaster with 52 samples.

Results

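Among the 16680 genes counted in every library, 4 had almost no RNA in any wild-type embryo and a clear level in at least 1 mutant: CG12200 (now named narya), CG31601, Cnx14D and Ir7g. They were chosen by their measured level. Each gene's expected count was scaled by the summed count of its library to counts per 1000000 (CPM) and averaged over the 2 libraries of a group. A gene was kept if this mean was under 0.5 CPM in all 12 wild-type groups and at least 5 CPM in at least 1 of the 14 mutant or overexpression groups. Cuticle protein families were left out by name, and with them kept the count was also 4. The levels of the 4 genes therefore stand here as a description, with no test.

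RNA was sequenced from Drosophila melanogaster embryos in 52 libraries, 26 groups of 2, at 0.5-1 h, 1-1.5 h and, for HIRA and H3.3 only, 2.5-3 h of development. The study asked how dPCIF1 (CG11399), the histone chaperone HIRA and the histone variant H3.3 bear on zygotic genome activation, the onset of transcription in the embryo's own nuclei. In wild-type embryos the RNA present before that onset was loaded by the mother. Each of the 5 experiments had its own wild type, taken from the w1118 strain, a white-eyed laboratory line.

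The M-Z+ HIRA mutant came from mothers with CRISPR alleles of HIRA, M-Z+ being the usual notation for embryos without the maternal product but with a zygotic copy. The M-Z+ H3.3 mutant came from the rare surviving mothers mutant for both H3.3A and H3.3B. In the dPCIF1 mislocalized mutant, a GFP-tagged dPCIF1 was held at lipid droplets by a transgene that joins an anti-GFP nanobody to the droplet protein Jabba. The overexpression groups carried HIRA alone, or HIRA and dPCIF1, as UASp transgenes, and the study lists the maternal driver matalpha4-GAL-VP16 among its lines without tying it to these groups. The dPCIF1 S111A S115A allele carried both serine-to-alanine changes. Each library held a pool of 50 hand-picked embryos, and since nuclear divisions are described as halted or delayed in HIRA mutants, embryos of one age need not be at one stage. Each genotype came from its own fly lines, so the named alleles and whatever else those lines carried cannot be told apart. In pooled embryos, fewer embryos or cells with a transcript and less of it in each cannot be told apart either.

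The summed expected count ran from 15073544 to 31579940 per library, with a median of 23610130, so that 3 counts corresponded to 0.0950 to 0.199 CPM. All 9 maternal embryo markers listed, bcd, osk and nos among them, were detected in each group. The wild type of the HIRA experiment stood apart from the other wild types in RNAs of older tissues. At 0.5-1 h its 21 somatic muscle genes summed to 504 and 505 CPM against 6.92 to 170 CPM elsewhere, and 122 cuticle genes to 281 and 300 CPM against 0.895 to 4.03 CPM. Fold changes of such genes in HIRA mutants rest on these libraries, the only wild type of that experiment. The targeted RNAs were still present in the mutants. Hira was at 67.0 and 68.1 CPM in the HIRA mutant at 0.5-1 h against 168 and 186 CPM in its wild type, but at 19.2 and 21.5 CPM against 10.1 and 11.1 CPM at 2.5-3 h. His3.3A in the H3.3 mutant was at 80.0 and 84.8 CPM at 0.5-1 h against 158 and 170 CPM.

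The 4 genes have little in common in function. CG12200, or narya, encodes a RING finger protein that acts in female meiosis, where it helps DNA double-strand breaks form and crossovers mature. Cnx14D encodes a calnexin, a lectin chaperone that holds newly made glycoproteins in the endoplasmic reticulum until they fold. Ir7g belongs to the ionotropic receptors, channel proteins related to glutamate receptors that serve taste and smell. CG31601 has no assigned role.

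By genotype the 4 genes fell almost wholly to HIRA and H3.3. Each of the 4 was at 5 CPM or more in at least 1 HIRA mutant group, 2 of them (CG12200 and CG31601) also in H3.3 mutants, and CG12200 alone in embryos with mislocalized dPCIF1. None reached that level in any overexpression or dPCIF1 S111A S115A group. By stage, CG12200 was high at every stage sampled in these 3 genotypes, CG31601 and Ir7g were high at 2.5-3 h, a stage not sampled in the other experiments, and Cnx14D was highest at 0.5-1 h. Per length of transcript, the means in the group with the highest CPM were 69.2 TPM (the deposited transcript abundance, scaled for length and depth) for CG12200, 4.70 TPM for Cnx14D, 4.14 TPM for Ir7g and 3.39 TPM for CG31601, so CG12200 stood well above the other 3.

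CG12200 (FBgn0031018) was almost silent in wild type. Its expected count in the 24 wild-type libraries ran from 0 to 10, with a median of 3 and a sum of 83, and 2 libraries had none. The highest wild-type group, the one for the HIRA mutant at 1-1.5 h, averaged 0.368 CPM. Wild-type embryos thus carried traces of this transcript at most, near the 3-count limit.

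In HIRA mutants the 2 libraries gave 34.2 and 34.7 CPM of CG12200 at 0.5-1 h, 47.4 and 44.6 CPM at 1-1.5 h, and 46.7 and 50.7 CPM at 2.5-3 h. All 6 libraries lay far above every wild-type library, the highest of which was at 0.386 CPM. The level was lowest at the first stage, where both libraries were below all 4 later ones, and the libraries of the 2 later stages overlapped. The means over 2 libraries were 34.4 ± 0.353, 46.0 ± 2.01 and 48.7 ± 2.80 CPM (SD, n = 2). Against their own wild types these were 231-, 125- and 184-fold higher, ratios that rest on few wild-type reads (38 over all 6 libraries).

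In H3.3 mutants the libraries gave 34.4 and 32.3 CPM at 0.5-1 h, 25.6 and 21.7 CPM at 1-1.5 h, and 37.4 and 40.0 CPM at 2.5-3 h. Here the middle stage was the low one, and the 3 stages did not overlap. The means were 33.4 ± 1.43, 23.6 ± 2.698 and 38.7 ± 1.83 CPM. At 0.5-1 h the wild type was within the 3-count floor and the mutant was at least 327-fold higher, while the ratios at the later stages were 197 and 278. Those 2 ratios rest on 7 and 6 wild-type reads in all, and when 1 library was left out the fitted log2 value ran from 6.79 (without wild-type library 2) to 9.25 (without library 1) at 1-1.5 h and from 7.11 to 9.004 at 2.5-3 h, in the same order of libraries.

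In embryos with mislocalized dPCIF1 the level of CG12200 was lower but still clear. The libraries gave 10.1 and 9.91 CPM at 0.5-1 h and 18.5 and 16.2 CPM at 1-1.5 h, a 1.73-fold higher mean at the later stage, with no overlap between stages. At 0.5-1 h this was at least 81.6-fold above wild type and at 1-1.5 h 141-fold. The lowest of the 16 libraries in these 8 high groups, at 9.91 CPM, was 25.7 times the highest wild-type library.

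The same gene stayed near its wild-type trace in the other genotypes. HIRA overexpression gave 0.163 to 0.401 CPM over 4 libraries, HIRA with dPCIF1 0.0592 to 0.252 CPM, and dPCIF1 S111A S115A 0.194 to 0.555 CPM. These ranges overlapped that of all wild-type libraries, and 2 libraries, with 7 and 9 reads, lay above it. Within the overexpression experiment, HIRA at 1-1.5 h had 10 and 7 reads against 1 and 3 in its wild type. The order of the 8 high groups was HIRA mutant at 2.5-3 h and 1-1.5 h, H3.3 mutant at 2.5-3 h, HIRA mutant and H3.3 mutant at 0.5-1 h, H3.3 mutant at 1-1.5 h, then mislocalized dPCIF1 at 1-1.5 h and 0.5-1 h. Only the 2 HIRA groups at the top and the HIRA and H3.3 groups at 0.5-1 h overlapped with a neighbour in this order.

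**Figure D1:**
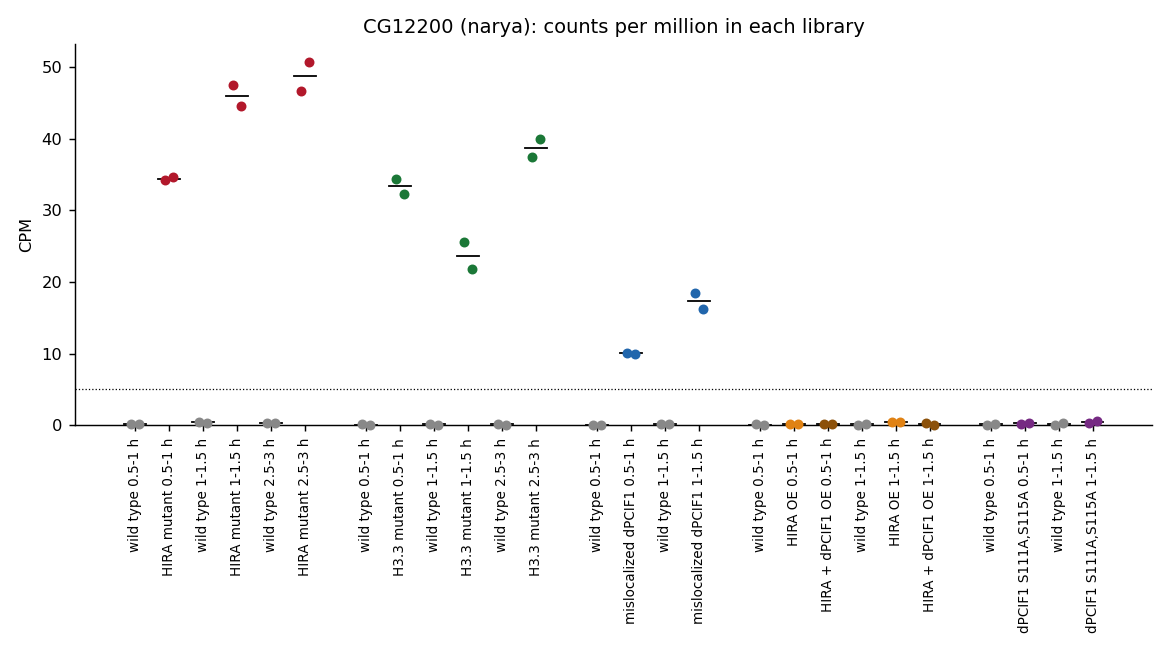
Level in CPM of CG12200 (narya) in each of the 52 libraries, grouped by experiment and stage, with wild type in grey, each other genotype in its own colour, a bar at the mean of the 2 libraries and a dotted line at 5 CPM. The 16 libraries of the HIRA mutant, the H3.3 mutant and mislocalized dPCIF1 sit between 9.91 and 50.7 CPM, and the other 36 lie at or under 0.555 CPM.

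CG31601 (FBgn0051601) came up late. Wild-type libraries held 0 to 3 counts, with none in 15 of 24. In HIRA mutants the counts were 7 and 3 at 0.5-1 h, 1 and 2 at 1-1.5 h, and 123 and 84 at 2.5-3 h. In H3.3 mutants they were 14 and 27, 18 and 22, and 132 and 116 at the same stages. Both genotypes were thus low early and high at 2.5-3 h.

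At that stage the level of CG31601 was 7.67 and 4.62 CPM in HIRA mutants and 5.51 and 5.05 CPM in H3.3 mutants, so the 2 genotypes overlapped. The means of 6.14 ± 2.16 and 5.28 ± 0.324 CPM were at least 37.5-fold and at least 31.1-fold higher than in their wild types, taken at the 3-count floor. Within H3.3 mutants the mean at 2.5-3 h was 6.78 times that at 1-1.5 h. Small counts also stood above all wild-type libraries with mislocalized dPCIF1 at 0.5-1 h, where 7 and 5 reads gave 0.225 and 0.161 CPM, and in dPCIF1 S111A S115A at 1-1.5 h, where 12 and 6 reads gave 0.645 and 0.370 CPM. The overexpression libraries held at most 2 reads.

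Cnx14D (FBgn0264077) was confined, among the genotypes sampled, to the HIRA mutant as far as levels of 1 CPM or more are concerned. Its expected counts there were 95.6 and 209 at 0.5-1 h, 116 and 189 at 1-1.5 h, and 39.8 and 51.8 at 2.5-3 h. The largest wild-type count was 7, in 1 library for the HIRA mutant at 2.5-3 h, and 10 of the 24 wild-type libraries had none. Every HIRA mutant library was above every wild-type library.

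In CPM the HIRA mutant libraries had 6.34 and 7.83, then 6.21 and 6.33, then 2.48 and 2.85 of Cnx14D. The level was higher at the 2 early stages, whose libraries lay next to each other, and the latest stage lay below both, the mean at 0.5-1 h being 2.66 times that at 2.5-3 h. With wild type taken at the 3-count floor the mutant was at least 55.0-fold higher at 0.5-1 h and at least 48.7-fold at 1-1.5 h, with a ratio of 12.6 at 2.5-3 h. That ratio rests on 1 and 7 wild-type reads, and the fitted log2 value was 5.81 without wild-type library 2 and 2.80 without library 1. H3.3 mutants had at most 7 reads (0.305 CPM) and mislocalized dPCIF1 none, both within the range of the wild-type libraries. The expected counts of Cnx14D were not whole in 9 libraries, since the counting software shares out reads that align to more than 1 place. Every HIRA mutant library was among the 9, and no wild-type library was.

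Ir7g (FBgn0029968) was the sparsest of the 4 and the only one at 5 CPM or more in a single group. In HIRA mutants its counts were 1 and 3 at 0.5-1 h, 7 and 9 at 1-1.5 h, and 95 and 79 at 2.5-3 h. Wild-type libraries held at most 1 read, and 17 of 24 held none. The last stage gave 5.93 and 4.34 CPM, a mean of 5.13 ± 1.12 CPM and at least 31.4-fold higher than in wild type, with 1 of the 2 libraries under the 5 CPM limit.

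At 1-1.5 h the same receptor gene was already at 0.375 and 0.302 CPM in HIRA mutants, and the mean was 15.2 times higher at 2.5-3 h. H3.3 mutants at 2.5-3 h held 4 and 12 reads, or 0.345 CPM on average, also above every wild-type library. Embryos with mislocalized dPCIF1, HIRA overexpression or dPCIF1 S111A S115A had no Ir7g read.

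**Figure D2:**
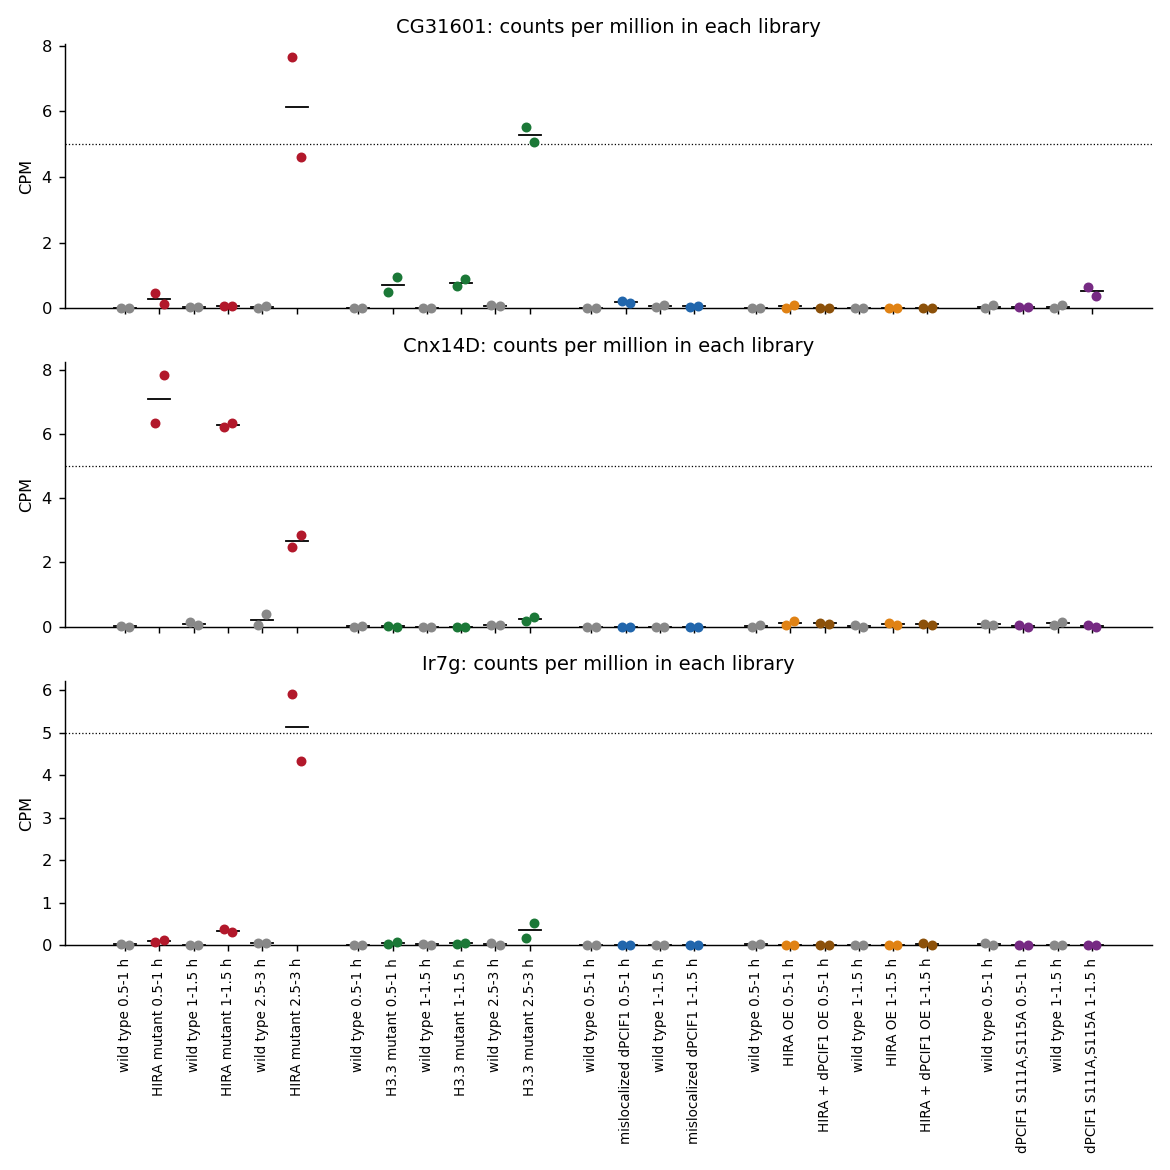
Level in CPM of CG31601, Cnx14D and Ir7g in each of the 52 libraries, with the groups, colours, mean bars and dotted line at 5 CPM as in the plot of CG12200, and a separate linear scale for each gene. CG31601 and Ir7g are high at 2.5-3 h, CG31601 in both HIRA and H3.3 mutants, while Cnx14D in HIRA mutants has a mean of 7.09 CPM at 0.5-1 h and 2.67 CPM at 2.5-3 h.

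Calls from the fit across all genes are given for completeness only, because the rule used the same contrasts. A call was an edgeR quasi-likelihood adjusted p under 0.05 with an absolute log2 fold change above 1. In HIRA mutants 4 of the 4 genes were called higher at 2.5-3 h, where 9.89% of all genes tested were, 3 of 4 at 0.5-1 h against 3.73%, and 3 of 4 at 1-1.5 h against 1.96%. In H3.3 mutants CG12200 and CG31601 passed the filter on low counts, through the mutant libraries where they were high, and were called higher at each stage, where 6.20%, 12.3% and 25.7% of all genes were. Nothing is read from these counts, which the rule and the filter had fixed. With mislocalized dPCIF1 the only one tested, CG12200, was called higher at 0.5-1 h and at 1-1.5 h, against 12% and 12.7%. None of the 4 was called lower, where 15.8%, 21.2% and 27.7% of all genes were in HIRA mutants, 5.79%, 1.87% and 17.7% in H3.3 mutants, and 4.34% and 14.5% with mislocalized dPCIF1. None passed the filter in the overexpression experiment or in dPCIF1 S111A S115A. In dPCIF1 S111A S115A alone, 4.37% and 9.24% of genes were higher and 2.08% and 5.34% lower at 0.5-1 h and 1-1.5 h.

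Just outside the rule lay genes that would have changed the picture by genotype. Among genes under 0.5 CPM in wild type, ms(3)76Ba peaked at 4.59 CPM in HIRA overexpression at 1-1.5 h, and the next ones, CG13361, CG17752, CG42854 and CG13992, at no more than 2.78 CPM in HIRA or H3.3 mutants. Just inside were Ir7g at 5.13, CG31601 at 6.14 and Cnx14D at 7.09 CPM. On the wild-type side, CG12200 was the nearest inside at 0.368 CPM. CG13532 lay just outside, at 0.544 CPM in the wild type for the HIRA mutant at 2.5-3 h. Aph-4, CG33970 and tj, which peaked at 5.48, 5.72 and 5.51 CPM in H3.3 mutants, had up to 0.670, 0.694 and 0.681 CPM in wild type. For all these outside genes, wild-type means of 0.5 CPM or more came only from the HIRA experiment. Its wild type was the one with more RNA of older tissues. CG13532 reached 39.4 and 48.9 CPM at 0.5-1 h and 1-1.5 h with mislocalized dPCIF1 and 30.8 and 38.1 CPM with HIRA overexpression. It was at 0.0582 and 0.755 CPM when dPCIF1 was overexpressed together with HIRA. Cyp6a9, of the cytochrome P450 family that detoxifies foreign compounds, had 0.556 CPM in its highest wild-type group and 11.8 CPM in dPCIF1 S111A S115A at 0.5-1 h. It was not particular to that allele. At 0.5-1 h it was at 9.51 CPM with mislocalized dPCIF1, 5.37 with HIRA overexpression, 5.16 in H3.3 mutants and 4.84 in HIRA mutants. With HIRA and dPCIF1 overexpressed together it was at 0.212 CPM at that stage.

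With the limit at 2 CPM in place of 5, 25 genes met the rule. Of these, 8 peaked in HIRA mutants at 2.5-3 h and 3 at 0.5-1 h, 5 in H3.3 mutants at 2.5-3 h and 3 at 1-1.5 h, 4 in HIRA overexpression, 1 in dPCIF1 S111A S115A and 1 with mislocalized dPCIF1. Of the 25 peaks, 13 were at 2.5-3 h, a stage sampled in HIRA and H3.3 only, so genotype and stage cannot be told apart in these counts.

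**Figure D3:**
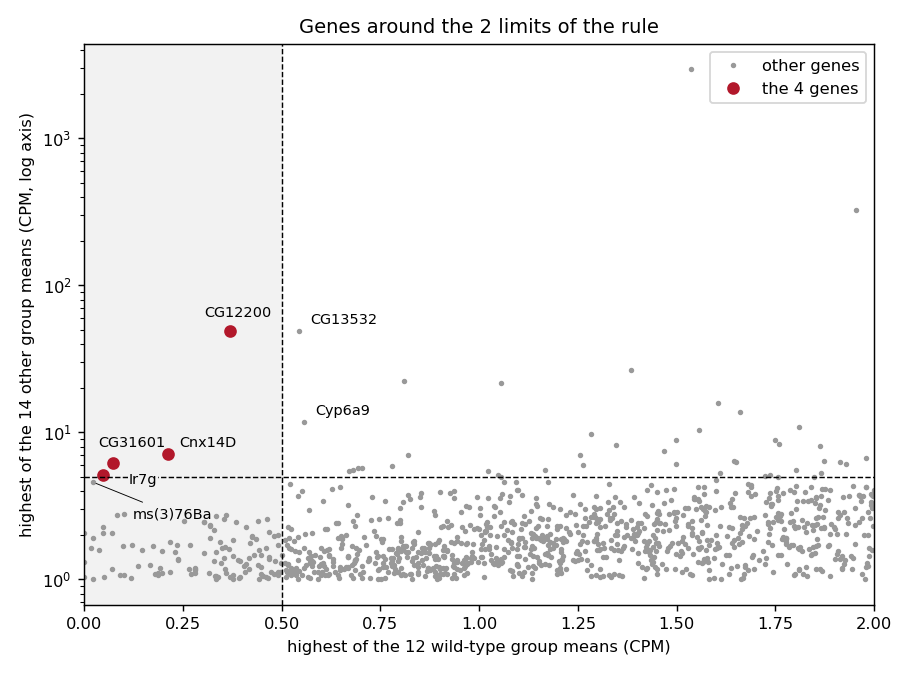
Each point is a gene, placed by its highest wild-type group mean (horizontal, CPM) and its highest mean in the other groups (vertical, CPM, log axis), for genes at 1 CPM or more on the vertical axis and under 2 CPM on the horizontal one. Dashed lines mark the limits of 0.5 and 5 CPM, and the 4 genes are in red: CG12200 at 48.7 CPM stands apart, and the other 3 lie between 5.13 and 7.09 CPM.

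Of the 4 genes, 3 lie on the X chromosome, which holds 15.4% of all genes with a position, and none within 50 kb of another. The targeted genes Hira and His3.3B are on the X as well, and whether this bears on the 4 genes was not tested. In the dm6 genome CG12200 is a single-exon gene at X:19475063-19476055 on the plus strand, inside an intron of CG32533 on the opposite strand and sharing 0 exon bases with it. Cnx14D is a single exon at X:16522967-16525415 on the minus strand, inside an intron of para, which encodes the voltage-gated sodium channel of neurons and is read in the same direction. Ir7g, with 3 exons, is at X:7884660-7886976 on the plus strand, in a cluster with Ir7b, Ir7c, Ir7d, Ir7e and Ir7f, and 158743 bases from Hira. CG31601 is at 2L:22040727-22043877 on the minus strand, with 53 annotated transposable elements within 50 kb, where the median protein-coding gene has 1 (quartiles 0 and 3). Cnx14D had 5 such elements within 50 kb, the nearest, Rt1c, 47 bases away. CG12200 had 4 and Ir7g 1. Whether these elements bear on the levels was not tested.

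Because the rule did not use the neighbours, their changes could be tested. CG32533, around CG12200, was not called in HIRA mutants, with log2 fold changes of -0.09, 0.09 and -0.49 over the 3 stages (edgeR adjusted p = 0.427, 0.403 and 0.000298, the last below the fold limit). In H3.3 mutants it fell by 1.46 at 0.5-1 h and by 1.63 at 2.5-3 h on the log2 scale (adjusted p = 1.2e-08 and 1.7e-10), and was at 7.40 and 9.40 CPM against 21.6 and 22.8 CPM at the first of these stages. Of the 12 or 13 neighbours of CG12200 tested within 50 kb, 0 were called higher in any HIRA, H3.3 or mislocalized dPCIF1 comparison, and 0 to 4 lower, with DESeq2 as well as edgeR. At an unadjusted p under 0.05 and any size of change, 1 to 8 were higher and 2 to 9 lower. Their median log2 fold change ran from -0.54 to 0.17 in those 8 comparisons. No neighbour was thus called in the direction of CG12200. The shares of all genes called higher were 3.73%, 1.96% and 9.89% in HIRA mutants and 6.20%, 12.3% and 25.7% in H3.3 mutants. With mislocalized dPCIF1 they were 12% and 12.7%. The shares called lower were 15.8%, 21.2% and 27.7%, then 5.79%, 1.87% and 17.7%, then 4.34% and 14.5%, in the same order. With so few neighbours, 0 called higher is near the shares in HIRA mutants, and nothing is read from it there.

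para, around Cnx14D, was lower in HIRA mutants, as was most of a list of 15 neuronal genes that holds it. These falls rest on the wild type of the HIRA experiment, which held more muscle and cuticle RNA than others at 0.5-1 h. Of the 15, all tested, 10, 14 and 14 were called lower and 0 higher over the 3 stages. Over all genes 15.8%, 21.2% and 27.7% were lower. In H3.3 mutants 13 and 14 of the 15 were called higher at 1-1.5 h and 2.5-3 h, against 12.3% and 25.7% of all genes. para was listed at 0 in both HIRA mutant libraries at 0.5-1 h, against 0.665 and 0.859 CPM in wild type, and was at 0.934 and 1.62 CPM against 8.24 and 8.97 CPM at 2.5-3 h. It was called lower at all 3 stages (log2 fold change -7.04, -5.58 and -2.81, edgeR adjusted p = 0.000403, 9.8e-06 and 1.1e-06). In H3.3 mutants, where Cnx14D was at or near 0, para was called higher at 1-1.5 h and 2.5-3 h (log2 fold change 4.07 and 4.18, adjusted p = 0.000167 and 4.5e-11). Reads from the para transcript and from Cnx14D would lie on the same strand.

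Beside Ir7g, the receptor gene Ir7e was called higher in HIRA mutants at 0.5-1 h and 2.5-3 h (log2 fold change 5.28 ± 1.61 and 3.27 ± 0.92, SE; edgeR adjusted p = 0.0234 and 0.0102), at very low levels. Its libraries had 0.437 and 0.605 CPM at 2.5-3 h against 0 and 0.0854 CPM. The call at 0.5-1 h was lost without either HIRA mutant library or without wild-type library 1, and that at 2.5-3 h without HIRA mutant library 2 or with DESeq2. Ir7f was not called at any stage (log2 fold change 1.32, 0.08 and -0.37, adjusted p = 0.446, 0.961 and 0.500), and the remaining receptors of the cluster had too few reads to be tested in this experiment. Of the 20 tested genes within 50 kb of Ir7g, 3 were called higher and 1 lower in HIRA mutants at 2.5-3 h, with a median of 0.37. Over all genes in that comparison, 9.89% were higher and 27.7% lower, with a median of -0.28. Around CG31601, 2 genes had enough reads at that stage and neither was called with edgeR, both being lower at an unadjusted p under 0.05 and 1 called lower with DESeq2.

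Most other genes of meiotic recombination were not called in the direction of CG12200. Of 12 listed, 10 were tested in HIRA mutants, with 2 higher and 0 lower at 0.5-1 h, 1 and 2 at 1-1.5 h, and 2 and 0 at 2.5-3 h. Over all genes 3.73%, 1.96% and 9.89% were higher and 15.8%, 21.2% and 27.7% lower at these stages. The medians of the meiotic genes were -0.03, -0.29 and 0.29, beside -0.06, -0.11 and -0.28 over all genes. In H3.3 mutants the counts higher and lower were 1 and 1, 0 and 1, and 2 and 2. Over all genes 6.20%, 12.3% and 25.7% were higher there and 5.79%, 1.87% and 17.7% lower. The 2 paralogs of narya behaved differently from it: nenya (CG31053) was called in none of the 8 HIRA, H3.3 and mislocalized dPCIF1 comparisons, its log2 fold changes running from -0.44 to 0.32, and vilya (CG2709) had too few reads to be tested.

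corolla (CG8316), which encodes a part of the synaptonemal complex that holds paired meiotic chromosomes together, was the one meiotic gene called in all 8 comparisons. In HIRA mutants it was at 33.5 and 34.6 CPM at 0.5-1 h against 6.998 and 9.27 CPM, and at 41.3 and 43.7 CPM at 2.5-3 h against 7.22 and 7.47 CPM. It rose by 2.26, 1.68 and 2.49 on the log2 scale over the 3 stages (edgeR adjusted p = 1.3e-07, 6.7e-07 and 1.3e-08), and by 1.79 and 1.80 with mislocalized dPCIF1 (adjusted p = 1.2e-10 and 1.5e-11). In H3.3 mutants it fell by 1.74, 1.01 and 1.60 (adjusted p = 1.0e-07, 4.4e-05 and 1.1e-07). The call at 1-1.5 h was lost when counts were scaled by library size without TMM, with no filter on low counts, with only the 2 groups fitted, without H3.3 mutant library 1 and without wild-type library 1, where it lay between -0.77 and -0.99. So corolla shared the direction of CG12200 in HIRA mutants and with mislocalized dPCIF1, and had the opposite direction in H3.3 mutants.

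No call was made among the endoplasmic reticulum chaperones in the HIRA mutants, where Cnx14D was high. Of 6 listed and tested, 0 were called higher or lower at any stage with edgeR or DESeq2, while 1, 5 and 2 were higher and 0, 0 and 2 lower at an unadjusted p under 0.05. The shares of all genes called were 3.73%, 1.96% and 9.89% higher and 15.8%, 21.2% and 27.7% lower. For 6 genes, 0 called higher is near those shares, and nothing is read from it. The other calnexin gene, Cnx99A, was at 368 and 376 CPM against 386 and 404 CPM at 0.5-1 h, with a log2 fold change of 0.09 ± 0.05 (SE, adjusted p = 0.205) after TMM scaling and -0.09 when scaled by library size alone, so its direction depended on the scaling. At 2.5-3 h it was 0.39 lower on that scale (adjusted p = 6.2e-05), below the fold limit. Per length, Cnx14D at 4.70 TPM remained far below Cnx99A at 230 TPM in the same embryos. Of 10 ionotropic receptors listed, 4 were tested in the HIRA experiment, and at 2.5-3 h Ir7e was higher and the coreceptor Ir25a lower.

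**Figure D4:**
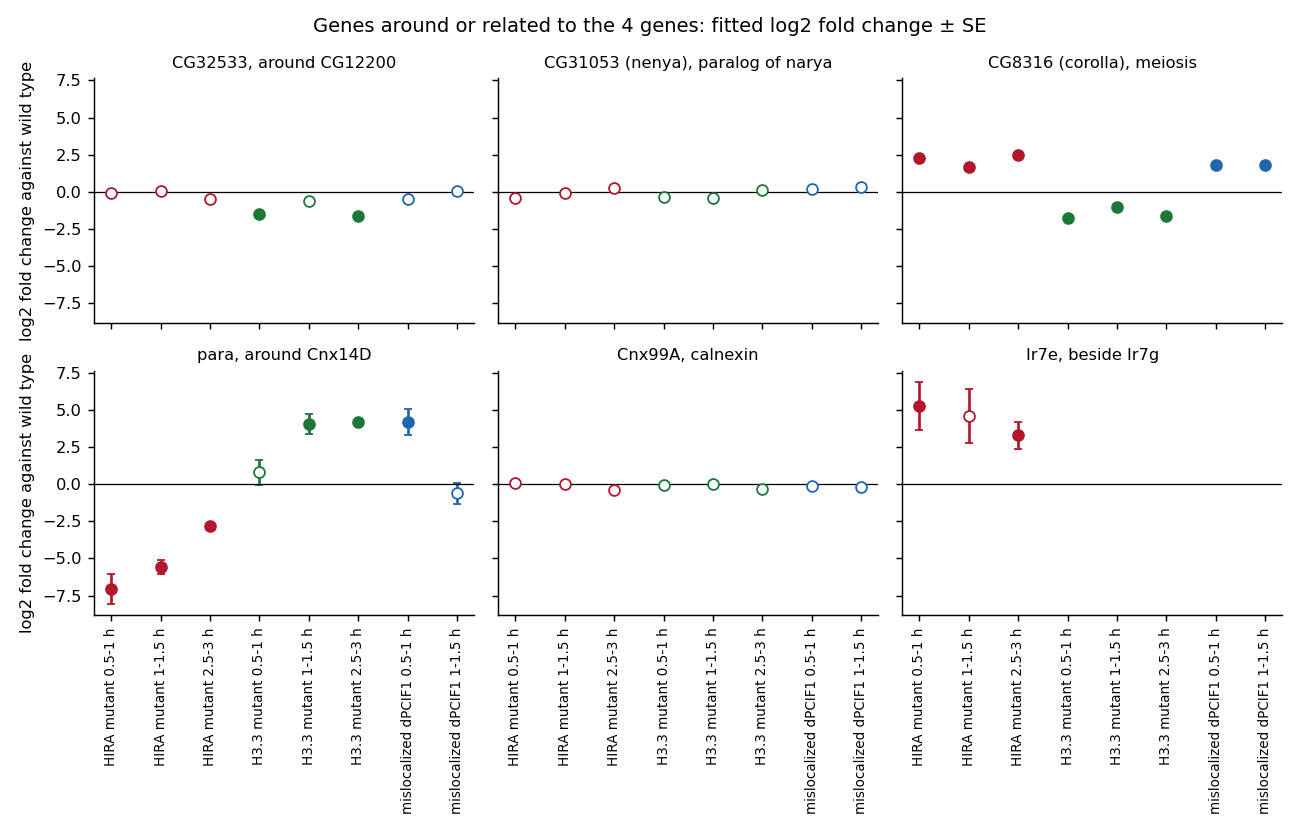
Log2 fold change against the matched wild type, fitted by edgeR, with error bars of 1 standard error (often smaller than the symbol), for 6 genes that surround or relate to the 4 genes; filled symbols passed the test and open ones did not, with HIRA mutants in red, H3.3 mutants in green and mislocalized dPCIF1 in blue. corolla rises in HIRA mutants and mislocalized dPCIF1 and falls in H3.3 mutants, para falls by 2.81 to 7.04 in HIRA mutants, and nenya (CG31053) and Cnx99A lie between -0.44 and 0.32.

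RNAs of older or other tissues also differed between the groups. For 21 somatic muscle genes, the summed level at 2.5-3 h was 59.6 to 65.7 CPM in HIRA mutants against 2104 to 2117 CPM in wild type, and 3956 to 3987 CPM in H3.3 mutants against 491 to 511 CPM. Act79B, TpnC25D and TpnC47D were at 0 in the HIRA mutants, and none in the other 3 groups. The summed level of the 122 cuticle genes left out by the rule was 17.4 to 19.96 CPM in HIRA mutants against 567 to 594 CPM, and 1159 to 1208 CPM in H3.3 mutants against 59.7 to 62.7 CPM. At 2.5-3 h muscle RNA was thus lower in HIRA and higher in H3.3 mutants, with 17 of 17 tested genes called lower in the one and 16 of 17 higher in the other. At 0.5-1 h it was lower in both, with 17 of 17 and 12 of 17 called lower, and at 1-1.5 h 17 of 17 were lower in HIRA and 15 of 17 higher in H3.3 mutants. With mislocalized dPCIF1, 15 of 16 were called higher at 0.5-1 h and 13 of 16 lower at 1-1.5 h. Of all genes, 15.8%, 21.2% and 27.7% were lower in HIRA mutants at the 3 stages. In H3.3 mutants 5.79% were lower at 0.5-1 h, and 12.3% and 25.7% higher at 1-1.5 h and 2.5-3 h. The shares with mislocalized dPCIF1 were 12% higher at 0.5-1 h and 14.5% lower at 1-1.5 h. The muscle falls in HIRA mutants rest on a wild type with more muscle RNA than that of the H3.3 experiment at 0.5-1 h and 2.5-3 h. The part of muscle and cuticle RNA in the levels of the 4 genes was not tested.

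RNA of the eggshell, only a part of ovarian RNA, was followed by 18 genes, since narya acts in the ovary. Their summed level at 0.5-1 h was 1.35 to 2.26 CPM in HIRA mutants against 68.3 to 75.7 CPM in wild type, with 0 of 15 tested called higher and 15 lower. At 1-1.5 h 0 were higher and 10 lower, and at 2.5-3 h 1 was higher and 4 lower, the sums there being 7.15 to 7.42 CPM against 10.7 to 11.2 CPM. Over all genes 3.73%, 1.96% and 9.89% were higher and 15.8%, 21.2% and 27.7% lower at the 3 stages. In H3.3 mutants the eggshell sum was 306 to 354 CPM at 1-1.5 h against 0.138 to 0.269 CPM. There 18 of 18 were called higher (17 with DESeq2), and 14 and 16 of 18 were higher at 0.5-1 h and 2.5-3 h. Over all genes 6.20%, 12.3% and 25.7% were higher at the 3 stages. At 1-1.5 h with mislocalized dPCIF1 the eggshell sum was 0.340 to 0.356 CPM, and 11 of the 18 genes were at 0. With HIRA and dPCIF1 overexpressed it was 105 to 108 CPM at 1-1.5 h against 0.133 to 0.331 CPM, with 14 of 14 tested called higher. The share over all genes is not given for that comparison. In the testis and accessory gland list, 17 of 28 genes were at 0 in HIRA mutants at 2.5-3 h and 18 in their wild type, and of 4 tested 0 were called higher and 1 lower with edgeR, 0 higher at an unadjusted p under 0.05 and 0 in either direction with DESeq2. Maternal RNAs were higher at 2.5-3 h in both mutants, with 6 of 9 markers called higher in HIRA and 7 of 9 in H3.3 mutants, the 9 summing to 6381 to 6498 CPM in HIRA mutants against 2010 to 2052 CPM, and to 8268 to 8328 CPM in H3.3 mutants against 2489 to 2576 CPM. The part of eggshell and maternal RNA in the levels of the 4 genes was not tested.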

How the data were processed

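The methods describe rRNA-depleted, strand-specific RNA-seq libraries, while the labels give the molecule as polyA RNA. Per the submitters' processing notes the authors used Trimmomatic 0.39, STAR 2.7.10a with the dm6 genome, and RSEM 1.3.1 for counting; the strand setting is not given in the sources used here. The deposited values were expected counts per gene, with no normalization between libraries, and TPM (transcript abundance scaled for length and depth), both used as deposited by the authors. CPM was computed from expected counts. For the tests, expected counts were rounded, genes kept by filterByExpr, and each of the 5 experiments fitted over all its groups with TMM and edgeR 4.0.16 (R 4.3.3) quasi-likelihood, with Benjamini-Hochberg adjustment over all genes tested. Standard errors were not estimated directly. Each was the absolute log2 fold change divided by the square root of the quasi-likelihood F statistic, and is approximate for genes with few reads. On simulated counts the fit recovered 199 of 200 changed genes for the dPCIF1 S111A S115A comparison at 0.5-1 h and all 200 for the HIRA mutant at 0.5-1 h. A ratio against a group with at most 3 counts in each library was taken against 3 counts and is a lower bound, and covers no counting error.

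The genes and all lists were chosen with earlier results of these data known. The rule for named genes took all 4 genes and those nearest the limits; the lists of meiotic, chaperone and receptor genes were made after the 4 genes were known, and corolla, nenya, vilya, CG32533, para, Cnx99A, Ir25a and the genes of the Ir7 cluster were singled out after their values or positions were seen. Positions came from the BDGP6 annotation, the same assembly as dm6, and symbols were matched to RefSeq; 16494 of 16680 genes matched. No genome sequence was used here. Biological replicates were 2 per group, and their counts differed beyond sampling noise in all 26 pairs. Alternatives were DESeq2 1.42.0, library sizes in place of TMM, no filter, only the groups compared, a replicate block and each library left out.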

Additional observations from a re-analysis of the deposited data

Results flagged for a closer look

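The meiotic gene c(3)G, part of the synaptonemal complex, was called in opposite directions at different stages of the HIRA mutant, with libraries that did not overlap with wild type. Its log2 fold change was 1.77 at 0.5-1 h, -1.32 at 1-1.5 h and 1.11 at 2.5-3 h, and the difference between stages was not tested. The call at 1-1.5 h was lost without HIRA mutant library 1 or wild-type library 1, and that at 2.5-3 h without the same libraries of its own stage or with DESeq2. para was likewise called higher in dPCIF1 S111A S115A at 0.5-1 h (3.14) and lower at 1-1.5 h (-4.44), again with no test of the difference, and the first call was lost with DESeq2 and without mutant library 1 or either wild-type library.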

How the results depend on the processing

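The number of genes depended most on the 2 limits. It was 4 as reported, 25 with a level of 2 CPM, 1 (CG12200) with 10 CPM, 13 with a wild-type limit of 1 CPM and 3 with 0.25 CPM, which dropped CG12200. It was 3 with TMM-scaled library sizes or with every library past the limits, both without Ir7g, and 5 to 6 when 1 replicate of every group was left out (5 without replicate 2, which added Cyp6a9, and 6 without replicate 1, which dropped Ir7g and added CG13532, CG33502 and Tsp42Eb). The call of all 4 in the comparison of their peak group was fixed by their selection and says nothing of stability; it was 4 in each alternative, the replicate block included.

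Tissue list genes other than the 4 were called higher 11 times and lower 103 times in HIRA mutants at 2.5-3 h, and 112 and 17 times in H3.3 mutants; with the replicate block these 4 counts were the same, and with a library left out they ran over 11 to 14, 97 to 100, 109 to 112 and 16 to 19. The replicate numbers did not pair the libraries, as residual correlations of same-numbered libraries ran from -0.16 to 0.18 over 57 pairs. For the 4 genes, 25 of 176 alternative fitted values moved by more than 1 standard error, mostly when a wild-type library of few reads was left out. Of 799 alternative values for 8 named genes outside the rule, 20 lost the call, 2 gained it and no call changed direction; values without a call took both signs in places, as for para in H3.3 mutants at 0.5-1 h (-0.91 to 1.70 with a library left out). Depth limited levels under about 3 counts.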
